A study of Arabidopsis thaliana with 16 samples.

Results

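Transcript levels of AT1G21550, AT5G05220, AT5G53680 and AT1G10260 were followed across 16 arrays of Arabidopsis thaliana seedlings. These 4 genes, of 13286 genes that could be named from a probe set of their own, encode no chaperone. They were chosen with measured values in view: their heat response in WT, QK and A2QK and their level in A2QK at 22 °C. Each is read by a single probe set. Values are the authors' RMA levels on a log2 scale, so a step of 1 is a doubling.

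The arrays form 8 groups of 2, from whole seedlings aged 7 days. The A2QK line (A2QK-10) carries HSFA2 under the viral CaMV 35S promoter, which drives expression in most tissues, in the QK mutant. The QK mutant lacks HSFA1a, b, d and e and has a background of mixed Col-0 and Ws. The hsfa2 line lacks HSFA2 in Col-0, and the wild type, WT, is Col-0. Each line was sampled after a water bath of 1 h at 37 °C and at 22 °C without heat. The study set out to separate heat-responsive genes that HSFA1 factors prefer from those that HSFA2 prefers. A2QK is a single transgenic line, so an effect of HSFA2 cannot be told apart from one of that line, and QK and A2QK differ from WT and hsfa2 in accession background as well as in the mutated genes.

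HSFA proteins are heat shock transcription factors: on heating they assemble into trimers and bind repeated short elements in the promoters of heat-inducible genes. In Arabidopsis the HSFA1 factors are present before heat and start the response, whereas HSFA2 is itself made in response to heat and prolongs it. Chaperone genes are their best known targets, but the factors also raise many genes with other roles. AT1G21550 encodes a calmodulin-like protein with EF hands, the loops through which such proteins bind calcium, and AT5G53680 encodes a protein with an RNA recognition motif, a fold that contacts RNA. No function is given here for the protein of AT5G05220, and the RefSeq table types AT1G10260 as a pseudogene. The _s_at ending of the AT1G10260 probe set marks probes that can match more than a single transcript, so its signal may not come from that locus alone.

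The r between the 2 arrays of each group, over all probe sets, was 0.959 to 0.995. The number of arrays, 2 a group, limits the precision, and the labels do not say whether they came from separate cultures, so the spread may be technical. Of the markers of seedling organs and seeds, 1 of 8 shoot, 2 of 6 root and 3 of 18 seed markers were measured. Here and below, a measured gene is one that the annotation names for a probe set of its own. The annotation did not list 8730 probe sets, so the arrays may read the other genes too. The summed linear level of the 3 seed markers (RMA values taken off the log scale) was 322 to 538 on the A2QK arrays and 656 to 2610 on the QK arrays, against 22.2 to 30.8 on the hsfa2 arrays and 15.7 to 72.8 on the WT arrays; its part in the results below was not tested. The 2 root markers summed to 33.5 to 62.2 on heated arrays and 84.7 to 178 on arrays at 22 °C, and the shoot marker RCA, a Rubisco activase, lay at 4690 to 7650 on heated arrays and 5810 to 8730 at 22 °C. In whole seedlings, fewer cells of a type and less RNA per cell cannot be told apart.

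AT1G21550, the calmodulin-like gene, was high after heat in A2QK, hsfa2 and WT and low in QK, and both heated A2QK arrays lay above both heated WT arrays, the nearest by a small margin (10.67 in A2QK and 10.65 in WT). Heated A2QK arrays gave 10.94 and 10.67 and A2QK arrays at 22 °C gave 4.01 and 4.16. Heated QK arrays gave 3.25 and 4.04, against 3.59 and 3.04 in QK at 22 °C. The heated arrays thus split into 2 sets with nothing between them, and heated QK lay among the unheated arrays. Heated hsfa2 arrays gave 10.58 and 10.72 and hsfa2 arrays at 22 °C gave 3.65 and 4.38. Heated WT arrays gave 10.65 and 10.20, against 4.51 and 3.42 in WT at 22 °C. Among the heated groups the means ran from A2QK (10.80 ± 0.19, SD, n = 2 as for all groups) through hsfa2 (10.65 ± 0.10) to WT (10.42 ± 0.32), and the arrays of these neighbours overlapped. At 22 °C the lines overlapped too, between 3.04 and 4.51 over 8 arrays. The heat response was 6.71 ± 0.38 in A2QK (log2 ± SE of the fit, as for all changes), 0.33 ± 0.38 in QK and 6.46 ± 0.38 in WT. These are rises of 105-fold in A2QK and 88.2-fold in WT. The SE is equal in all lines because the fit pools the spread of all 8 groups for each probe set. The SDs at 37 °C and at 22 °C were 0.19 and 0.11 in A2QK and 0.10 and 0.52 in hsfa2. They were 0.56 and 0.39 in QK and 0.32 and 0.77 in WT, so a pooled SE may understate the spread in some lines.

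AT5G05220 rose with heat to a higher level in A2QK than in the other lines. Heated A2QK arrays gave 8.43 and 8.27, against 3.03 and 3.21 in A2QK at 22 °C. Heated QK arrays gave 2.99 and 3.75 and QK arrays at 22 °C gave 3.28 and 3.57. The heated and unheated QK arrays overlapped. Heated hsfa2 arrays gave 6.58 and 6.31 and hsfa2 arrays at 22 °C gave 2.83 and 2.99. Heated WT arrays gave 6.52 and 6.49, against 2.48 and 3.33 in WT at 22 °C. Heated hsfa2 and heated WT overlapped, and both heated A2QK arrays lay above all 4 of their arrays. The heat response was 5.23 ± 0.28 in A2QK, -0.05 ± 0.28 in QK and 3.60 ± 0.28 in WT. After heat, A2QK exceeded WT by 1.84 ± 0.28, or 3.58-fold, while at 22 °C it differed from QK by -0.30 ± 0.28. Arrays of the same number deviated alike from their group means among WT and QK (r = 0.535 to 0.795). The A2QK and hsfa2 arrays hardly shared these deviations (r = -0.0221 to 0.11). For every member, the part of this divide in differences of A2QK or hsfa2 from WT or QK was not tested.

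AT5G53680, the gene of an RNA-binding protein, was the member with a higher level in A2QK before heat. Heated A2QK arrays gave 9.75 and 9.38, against 5.27 and 5.04 in A2QK at 22 °C. The other 6 arrays at 22 °C lay between 2.49 and 2.95, so unheated A2QK stood apart from all of them. Heated QK arrays gave 2.48 and 3.07, against 2.91 and 2.49 in QK at 22 °C. Heated hsfa2 arrays gave 7.90 and 7.83 and hsfa2 arrays at 22 °C gave 2.95 and 2.56. Heated WT arrays gave 8.35 and 8.17, against 2.72 and 2.70 in WT at 22 °C. The heated groups kept an order without overlap, A2QK above WT and WT above hsfa2, and the unheated A2QK arrays came next. A2QK exceeded QK by 2.46 ± 0.23 at 22 °C, a 5.49-fold difference that made up 35.8% of the log2 distance between unheated QK and heated A2QK. The same share was 10.3% for AT1G21550, 0.342% for AT1G10260 and -6.14% for AT5G05220. These shares rest on the values the members were chosen on and on QK levels near the low end of the scale, so they are a description; unheated A2QK lay above every other array at 22 °C for AT5G53680 only. The heat response of AT5G53680 was 4.41 ± 0.23 in A2QK, 0.07 ± 0.23 in QK and 5.55 ± 0.23 in WT.

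AT1G10260, the pseudogene, was the member with the lowest heated A2QK level relative to WT. Heated A2QK arrays gave 4.73 and 4.62, against 2.26 and 2.51 in A2QK at 22 °C. Heated QK arrays gave 2.34 and 2.60 and QK arrays at 22 °C gave 2.39 and 2.37. Heated A2QK lay above every QK array but far below the heated Col-0 lines. Heated hsfa2 arrays gave 8.63 and 8.78, against 2.57 and 2.65 in hsfa2 at 22 °C. Heated WT arrays gave 8.04 and 8.31, against 2.16 and 2.44 in WT at 22 °C. Both heated hsfa2 arrays were above both heated WT arrays. The heat response was 2.29 ± 0.17 in A2QK, 0.09 ± 0.17 in QK and 5.88 ± 0.17 in WT, and heated A2QK reached 8.81% of the heated WT level, a difference of -3.50 ± 0.17. For the other members this share was 130% (AT1G21550), 247% (AT5G53680) and 358% (AT5G05220).

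**Figure D1:**
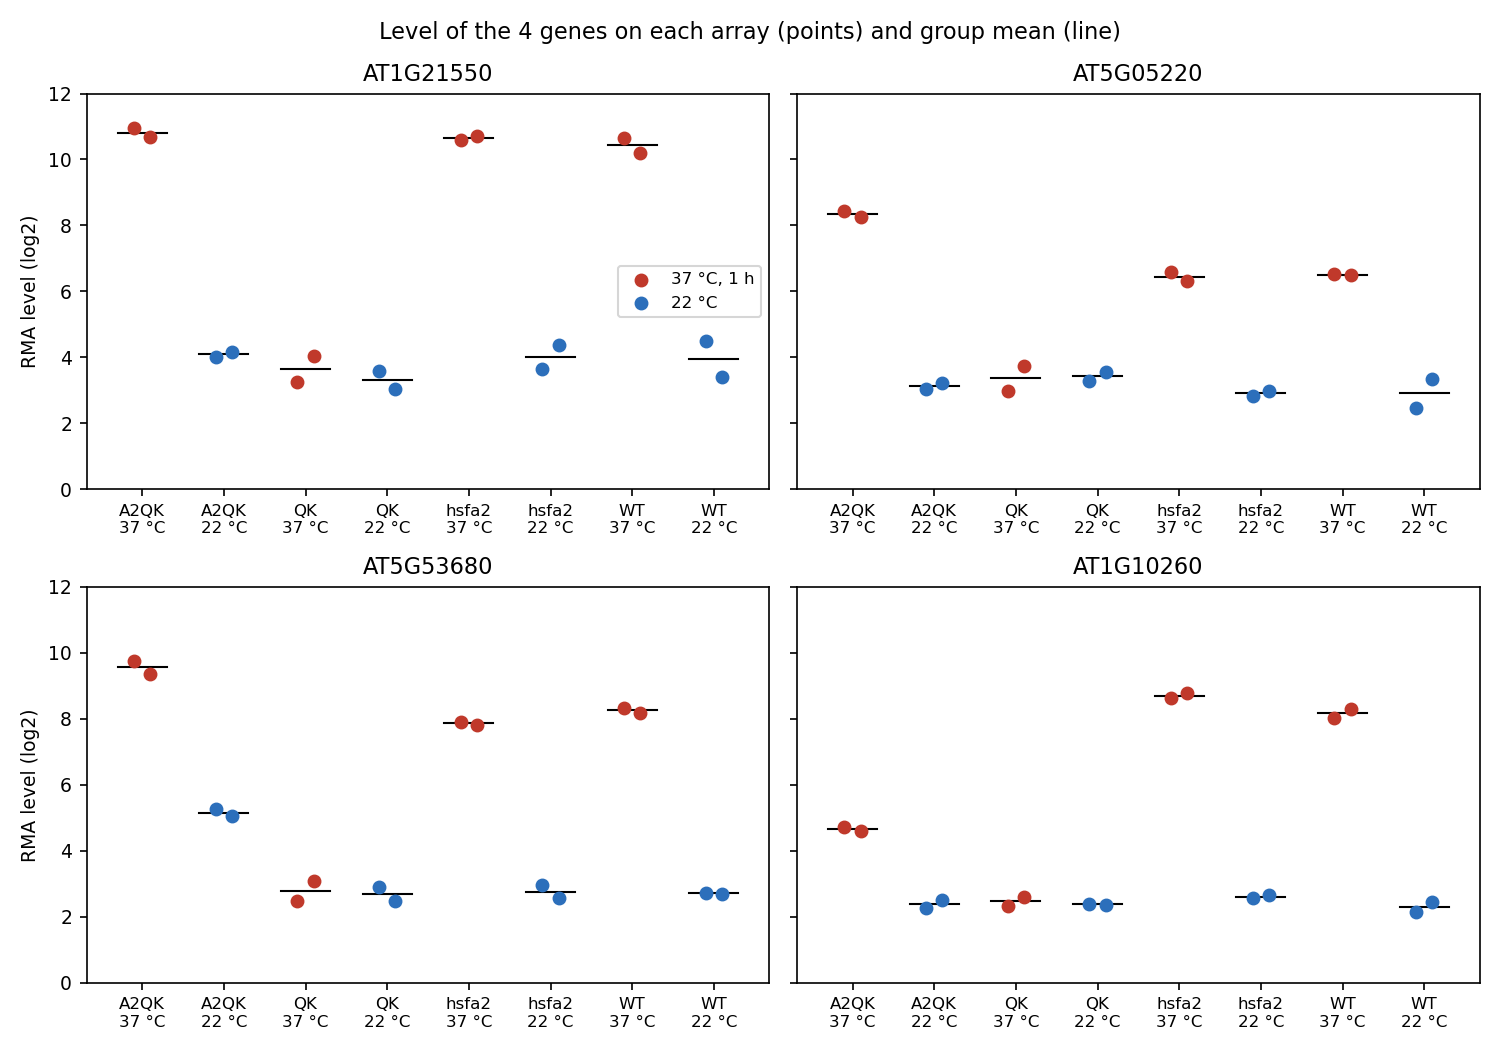
RMA level (log2, vertical axis) of the 4 genes on each of the 16 arrays, with heated groups in red, groups at 22 °C in blue and a line at each group mean of 2 arrays. In each panel the heated A2QK, hsfa2 and WT arrays lie above the other 10 arrays; AT5G53680 is near 5.15 in unheated A2QK, and AT1G10260 reaches only 4.67 in heated A2QK.

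Over all 16 arrays the 6 heated A2QK, hsfa2 and WT arrays lay above the other 10 for each member. The gap between the sets was 5.70 for AT1G21550, 2.57 for AT5G05220, 2.56 for AT5G53680 and 1.97 for AT1G10260. It was bounded below by unheated A2QK for AT5G53680 and above by heated A2QK for AT1G10260. The 10 lower arrays placed AT1G10260 between percentiles 3.74 and 14.1 of all probe sets on its array, AT5G05220 between 11.3 and 33.8, AT5G53680 between 10.2 and 50.9, and AT1G21550 between 24.8 and 42.8. Differences near the low end of the scale are compressed by the arrays' background, so the rises may be understated.

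The hsfa2 arrays took no part in the choice of the members, and the heat response of this line was the member comparison that was tested. All 4 members rose, where 5.61% of 22746 probe sets (1277) were called raised. AT1G10260 rose by 6.10 ± 0.17 (limma, Benjamini-Hochberg adjusted p = 2.78e-09), or 68.4-fold. AT5G53680 rose by 5.10 ± 0.23 (limma adjusted p = 1.38e-07), AT1G21550 by 6.63 ± 0.38 (limma adjusted p = 7.98e-07) and AT5G05220 by 3.53 ± 0.28 (limma adjusted p = 1.05e-05). Within array numbers 1 and 2 the rises were 6.06 and 6.14 for AT1G10260, 4.94 and 5.27 for AT5G53680, 6.92 and 6.34 for AT1G21550, and 3.74 and 3.32 for AT5G05220. Rises of at least 3 were called for 0.686% of probe sets (156), and the members ranked 29 (AT1G21550), 42 (AT1G10260), 54 (AT5G53680) and 133 (AT5G05220) by size of rise. Genes that heat raises in WT were commonly raised here: of 77 probe sets that rose by at least 3 in WT and changed by less than 1 in QK, limits set after the values were seen, 76 were called raised in hsfa2.

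The background count depended on the scaling. With equal array medians 2869 probe sets were raised and 1328 lowered in hsfa2, a share of rises of 68.4%, against 1277 and 1894 (40.3%) with the deposited values. The counts fell to 675 raised and 945 lowered without hsfa2 22 °C replicate 1, to 602 and 869 without hsfa2 22 °C replicate 2, and to 1142 lowered without hsfa2 37 °C replicate 2. When the WT and QK arrays were blocked by number they were 2143 and 3201.

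Set beside heated WT, heated hsfa2 differed by at most 0.53 for any member, and no test is given because the WT arrays helped to choose the members. After heat hsfa2 differed from WT by 0.53 ± 0.17 for AT1G10260, 0.22 ± 0.38 for AT1G21550, -0.06 ± 0.28 for AT5G05220 and -0.40 ± 0.23 for AT5G53680. Over all probe sets the median absolute difference between these heated groups was 0.282, and 5408 probe sets differed by more than AT1G10260 did. At 22 °C the differences were 0.31 ± 0.17 for AT1G10260, 0.06 ± 0.38 for AT1G21550, 0.05 ± 0.23 for AT5G53680 and 0.01 ± 0.28 for AT5G05220. The heat response of hsfa2 minus that of WT ran from -0.44 ± 0.33 for AT5G53680 to 0.22 ± 0.24 for AT1G10260.

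**Figure D2:**
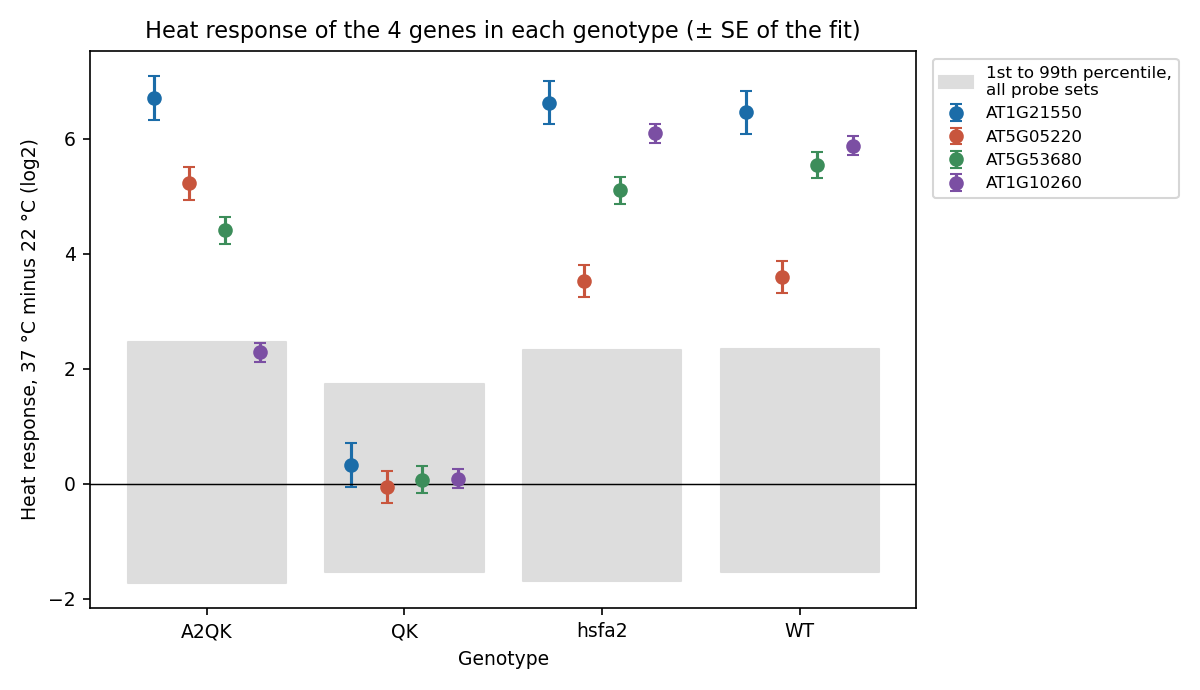
Heat response (37 °C minus 22 °C, log2) of the 4 genes in A2QK, QK, hsfa2 and WT, with bars for the SE of the fit and a grey box for the 1st to 99th percentile of all probe sets in that line. The members lie at 3.53 or above in hsfa2 and WT and between -0.05 and 0.33 in QK, and in A2QK only AT1G10260, at 2.29, lies within the box.

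In QK, without the HSFA1 factors, the members stayed low on a pair of heated arrays that differed widely for chaperones. HSP17.6C, a cytosolic small heat shock protein, was at 3.54 on heated QK array 1 and 9.50 on heated QK array 2, against 3.33 and 2.88 in QK at 22 °C. HSP17.6B, of the same class, was at 5.19 and 8.79, against 4.55 and 4.79. On heated array 2 every member was also higher than on heated array 1, by less than 1: AT1G21550 had 4.04 against 3.25 there, AT5G05220 3.75 against 2.99, AT5G53680 3.07 against 2.48, and AT1G10260 2.60 against 2.34. Of these values on array 2, those of AT1G21550 and AT1G10260 lay within the range of the arrays at 22 °C, and that of AT5G05220 lay above its highest value at 22 °C, 3.57. That of AT5G53680 lay above the 2.95 that was its highest value at 22 °C outside A2QK. Without heated QK array 1 the QK heat responses were 0.72, 0.33, 0.37 and 0.22 for AT1G21550, AT5G05220, AT5G53680 and AT1G10260, and without heated QK array 2 they were -0.07, -0.43, -0.22 and -0.04. Heated QK stood below heated WT by -6.78 ± 0.38 for AT1G21550, -5.71 ± 0.17 for AT1G10260, -5.49 ± 0.23 for AT5G53680 and -3.13 ± 0.28 for AT5G05220.

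A2QK exceeded QK mainly after heat for the members, and already at 22 °C for HSP17.6C and HSP17.6B. These were the 2 measured of 8 listed cytosolic small heat shock proteins. At 22 °C A2QK minus QK was 8.13 ± 1.26 for HSP17.6C and 5.95 ± 0.80 for HSP17.6B, which were at 11.23 and 10.62 in unheated A2QK. After heat it was 6.47 ± 1.26 and 5.25 ± 0.80 for them. For the members the difference at 22 °C was 0.77 ± 0.38 for AT1G21550, -0.30 ± 0.28 for AT5G05220, 0.01 ± 0.17 for AT1G10260 and 2.46 ± 0.23 for AT5G53680. After heat A2QK minus QK was 7.16 ± 0.38 for AT1G21550, 6.79 ± 0.23 for AT5G53680, 4.98 ± 0.28 for AT5G05220 and 2.20 ± 0.17 for AT1G10260. AT1G71000, which encodes a DnaJ-domain protein, had 0.14 at 22 °C and a heat response of 6.35 in A2QK. HSA32, a gene of lasting heat tolerance, had 2.25 at 22 °C. AT1G66080, related to Hikeshi, which carries HSP70 into the nucleus in human cells, was 0.51 higher in A2QK than in QK at 22 °C, and after heat it was at 7.21 in A2QK, against 9.82 in WT.

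Among the 77 probe sets raised in WT and not in QK, heated A2QK seldom reached the heated WT level. The median of A2QK minus WT after heat was -1.34, 50 of the 77 were lower by at least 1, and 10 were above 0. AT5G05220, AT5G53680 and AT1G21550 were among these 10, at ranks 3, 5 and 9, and AT1G10260 had rank 72 of 77. The other named genes above WT were AT5G07330 (2.61), AT3G03270 (0.52), which encodes a universal stress protein, and AT5G11680 (0.10). The other 4 probe sets could not be named from a single gene. Of the 10, 4 differed from QK by less than 1 at 22 °C: AT1G21550, AT5G05220, AT5G11680 and an unnamed probe set. These counts describe where the members lie, and the members were chosen on the same contrasts.

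**Figure D3:**
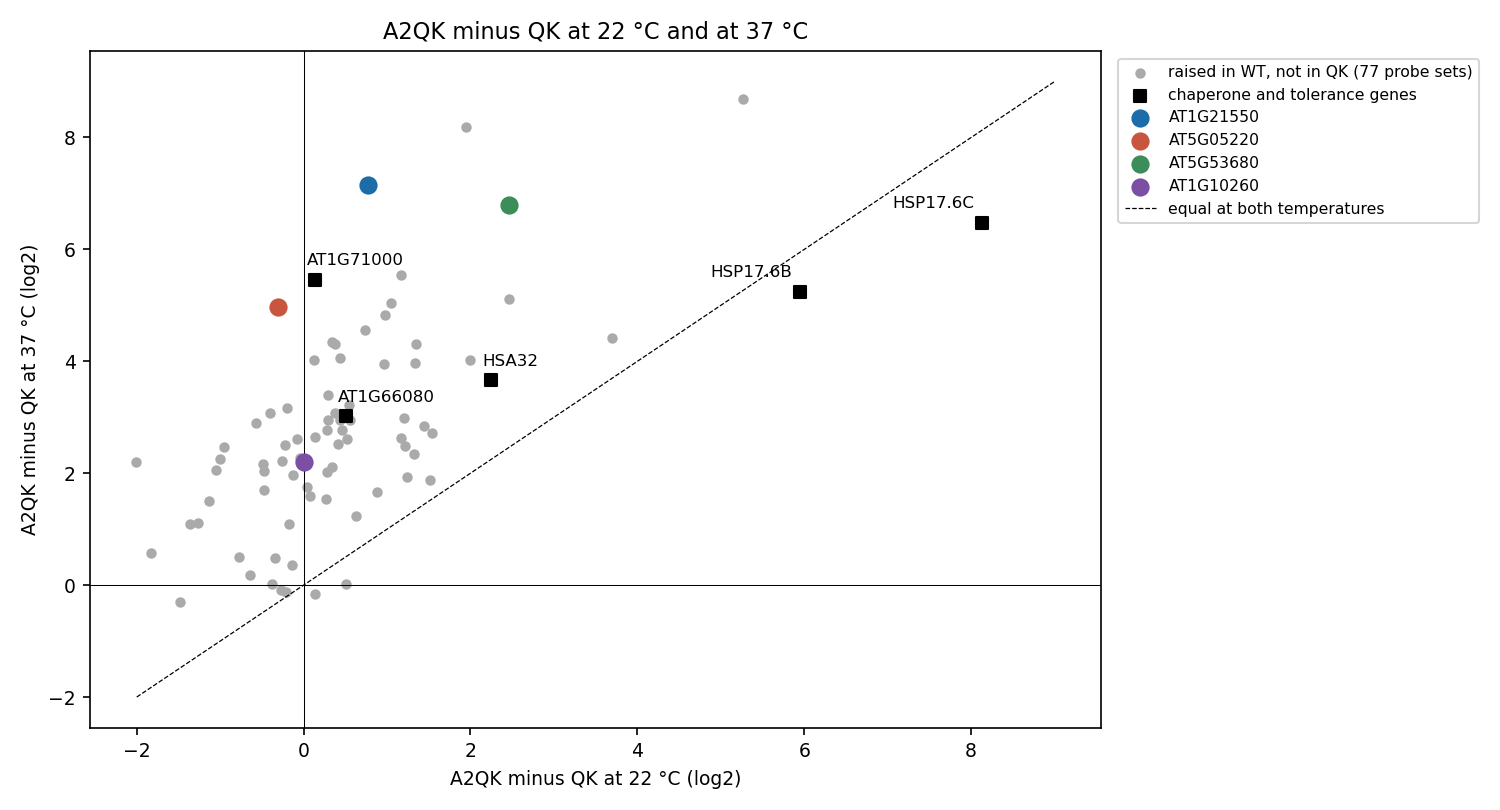
A2QK minus QK at 22 °C (horizontal, log2) against A2QK minus QK at 37 °C (vertical, log2) for the 4 genes, for 5 chaperone and tolerance genes (black squares) and for the 77 probe sets raised by at least 3 in WT and changed by less than 1 in QK (grey). HSP17.6C and HSP17.6B lie to the right, at 8.13 and 5.95 without heat, and the 4 genes lie at or left of 2.46 and above the dashed line of equal difference.

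The members correlated with each other over the 16 arrays, with a lower r for the pseudogene. Pearson's r was 0.95 for AT1G21550 with AT5G05220 and with AT5G53680, 0.94 for AT5G05220 with AT5G53680, 0.89 for AT1G21550 with AT1G10260, 0.78 for AT5G53680 with AT1G10260 and 0.75 for AT5G05220 with AT1G10260. The points share 8 groups, and these values follow from the pattern the members were chosen on. Likeness to other genes was measured in the same way, over 1269 named probe sets whose group means spanned at least 2.

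The genes most like AT1G21550 were AT4G02550 (r = 0.99), AT1G44414, AT3G07150, AT5G51740 and AT1G66510 (r = 0.97). AT5G51740 encodes a peptidase of mitochondria. They rose by 3.06 to 5.26 in WT, changed by -0.12 to 0.70 in QK and rose by 1.99 to 4.23 in A2QK, and AT1G21550 rose by more than each of them in WT and A2QK. The genes most like AT5G05220 were AT4G33905 (r = 0.99), AT4G33660, AT4G27680, AT1G67360 and AT5G11680 (r = 0.94). AT4G33905 shared the higher level in heated A2QK, 1.39 above WT, and AT1G67360, which encodes a protein of lipid droplets, was 0.36 below WT there.

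The genes most like AT5G53680 were AT1G72660 (r = 0.99), AT3G03270, AT5G11680, AT1G52560 and AT5G37670 (r = 0.96). AT1G52560 and AT5G37670 encode the small heat shock proteins HSP26.5 and HSP15.7, which were 5.12 and 4.41 higher in A2QK than in QK at 22 °C. AT1G72660 was 2.46 higher there, as AT5G53680 was. The genes most like AT1G10260 were AT4G15420 (r = 0.99), AT5G35320, AT1G66080, AT1G16040 and AT3G12050 (r = 0.98). AT3G12050 encodes a relative of the HSP90 activator AHA1. In heated A2QK all 5 were below WT, by differences from -1.80 to -2.89, and at 22 °C they were 0.04 to 0.62 higher in A2QK than in QK.

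The heat response was not shared by most of the nearest measured genes on the chromosome. Neighbours were taken from the gene order of the RefSeq table. Each is the nearest gene on its side that the annotation names for a probe set of its own. Genes passed over may have probe sets that the annotation did not list. In hsfa2 1 of the 8 neighbours was called raised, against 5.61% of all probe sets: SK18, a SKP1-like subunit of ubiquitin ligases, which is separated from AT1G10260 by 2 genes, rose by 1.75 ± 0.15 (limma adjusted p = 1.83e-05). SK18 also rose in A2QK (1.39 ± 0.15, limma adjusted p = 0.000107) and in WT (1.93 ± 0.15, limma adjusted p = 7.65e-06) and fell in QK (-0.67 ± 0.15, limma adjusted p = 0.0202). The heat response of A2QK minus that of WT was -3.59 ± 0.24 for AT1G10260. On the upper side of AT1G10260, AT1G10300, beyond 4 genes, changed by 0.17 ± 0.21 in hsfa2 and did not pass.

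AT1G21560, directly beside AT1G21550, rose in WT by 1.12 ± 0.20 (limma adjusted p = 0.0048; 3.31% of probe sets were called raised there), and in hsfa2 it had 0.57 ± 0.20 (limma adjusted p = 0.0849, and 0.0389 when the WT and QK arrays were blocked by number). AT1G21540, on the other side, had -0.42 ± 0.35 in hsfa2 and -0.33 ± 0.35 in WT. AT5G05210 and AT5G05230, which flank AT5G05220, had -0.36 ± 0.21 and -0.33 ± 0.22 in hsfa2. AT5G53670, directly beside AT5G53680, had 0.04 ± 0.24 in hsfa2, and AT5G53710, beyond 1 gene on the other side, had 0.18 ± 0.26. None of these 5 genes passed in any of the lines.

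**Figure D4:**
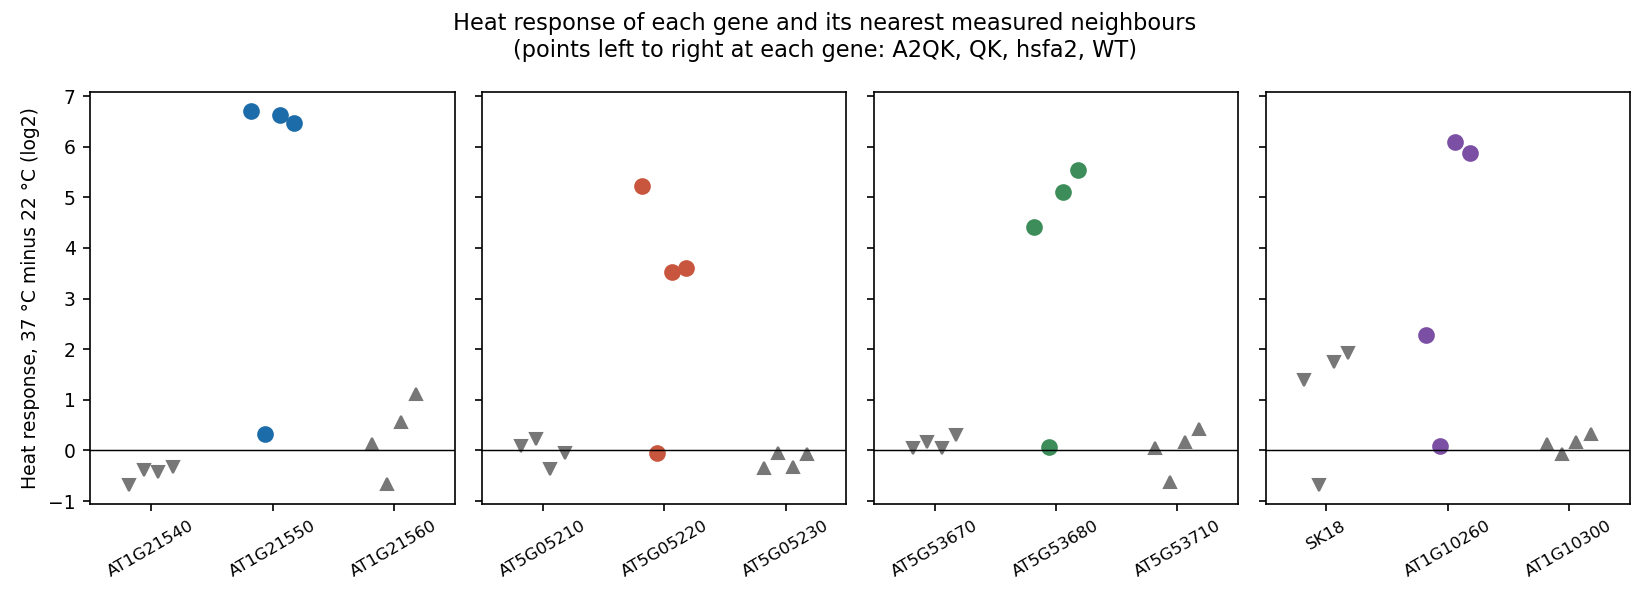
Heat response (log2, vertical axis) of each of the 4 genes (circles) and of its nearest measured neighbours on the lower (downward triangles) and upper side (upward triangles), with the points at each gene running from A2QK through QK and hsfa2 to WT. Among the neighbours SK18, at 1.75 in hsfa2 and 1.93 in WT, lies highest; AT1G21560 reaches 1.12 in WT.

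Other genes of the calmodulin family, to which AT1G21550 belongs, were counted against the share of all probe sets called. Of 35 listed calmodulin and calmodulin-like genes, without AT1G21550, 18 could be named from a probe set of their own. In hsfa2 2 of the 18 were raised and 1 lowered, or 16.7% called against 13.9% of all (median 0.18, against 0.03 for all probe sets; 5.61% of all were raised and 8.33% lowered). In WT 2 were raised and 1 lowered, or 16.7% against 8.64% (median 0.01, against 0.01; 3.31% raised and 5.33% lowered). In A2QK 1 was raised and 1 lowered, or 11.1% against 15.8% (median 0.29, against -0.01; 6.59% and 9.21%), and in QK 1 was raised and 0 lowered, or 5.56% against 6.86% (median -0.000593, against 0.03; 2.52% and 4.34%; without adjustment 4469 passed 0.05 by limma).

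CML37, a calmodulin-like calcium sensor, rose by 2.65 in hsfa2 (limma adjusted p = 0.0102) and by 3.09 in WT (limma adjusted p = 0.00546), where its heated mean was 5.31 ± 0.56 and its mean at 22 °C 2.22 ± 0.31. In A2QK it had 1.65 (limma adjusted p = 0.0733) and in QK -0.73 (limma adjusted p = 0.592). CML48 rose in A2QK (1.08), QK (1.19) and WT (0.69), and had 0.14 in hsfa2. CML42 was lowered in A2QK (-1.46), hsfa2 (-1.12) and WT (-1.17). In QK it had -0.54 (limma adjusted p = 0.289, and 0.0379 when the WT and QK arrays were blocked by number). CML23, named after its value was seen, was raised in hsfa2 (1.88, limma adjusted p = 0.016) and had 0.74 in WT (limma adjusted p = 0.407). With each line's own arrays fitted alone 8 of the 18 were called in A2QK (32.5% of all probe sets were), 0 in QK (0.185%), 3 in hsfa2 (15.0%) and 0 in WT (1.02%). With equal array medians 6 were called in A2QK (16.2% of all) and 3 in hsfa2 (18.5%). With WT and QK blocked by array number 7 were called in A2QK (25.6% of all) and 2 in QK (15.0%). With 18 genes these counts are read no further.

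Of 20 known non-chaperone heat targets, 2 could be named from a probe set of their own. The other targets may be read by probe sets that the annotation did not list. HSA32 rose by 5.03 in hsfa2, 2.44 in A2QK, 1.03 in QK and 4.93 in WT (limma adjusted p = 6.07e-07, 0.00016, 0.0489 and 7.48e-07 in that order). ZAT10, a zinc finger repressor listed under STZ, was raised in hsfa2 (2.17, limma adjusted p = 0.0392) and had 1.02 in WT, 0.87 in A2QK and -0.48 in QK. With own arrays alone 0 of the 2 passed in QK, where 0.185% of all probe sets did, and 2 passed in A2QK, where 32.5% did.

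**Figure D5:**
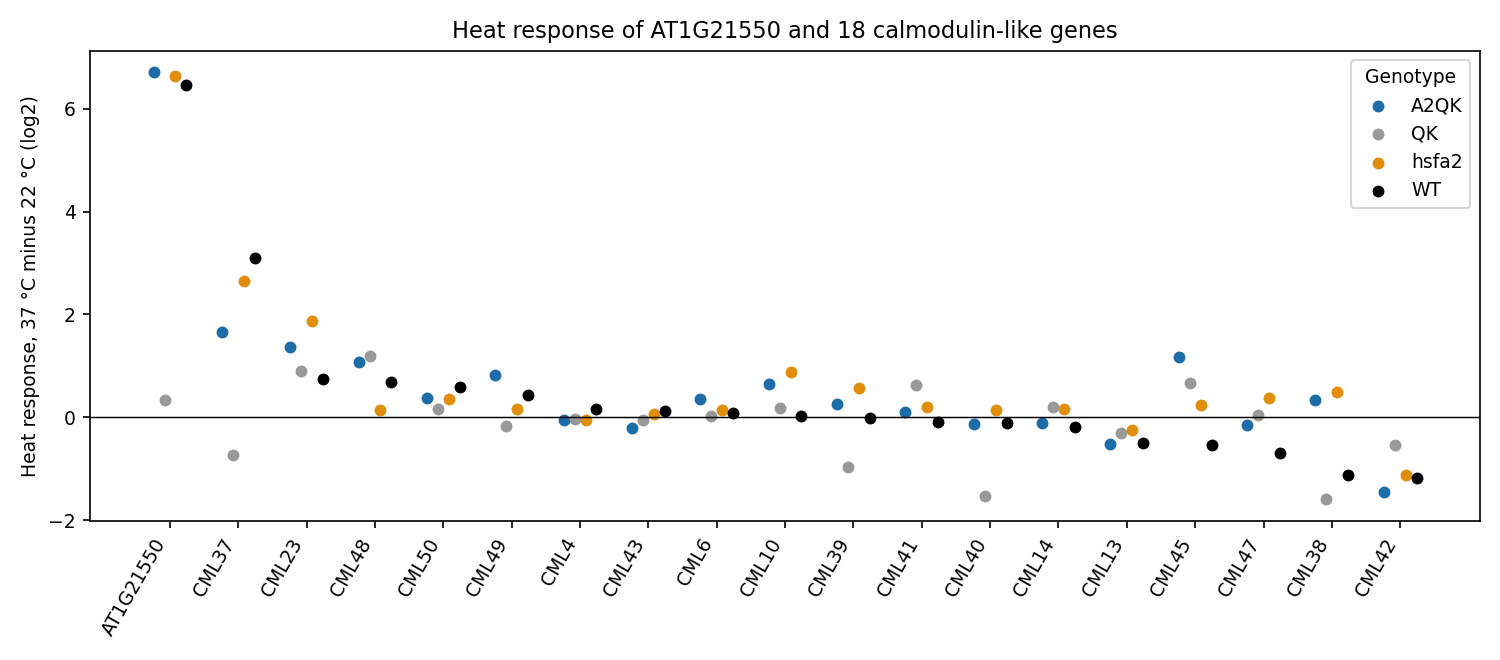
Heat response (log2, vertical axis) of AT1G21550 and the 18 measured calmodulin-like genes, ordered by their response in WT, in A2QK, QK, hsfa2 and WT (colours). AT1G21550 lies at 6.46 to 6.71 outside QK, and CML37 follows at 3.09 in WT.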

How the data were processed

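The authors deposited a table of log2 intensity values, made with RMA per the submitters' processing notes, for 22810 probe sets on 16 Affymetrix arrays hybridised with biotin-labelled cRNA. No source used here states the RMA version, the chip definition or whether normalization covered all arrays at once. RMA gives arrays similar distributions, which reduces a change shared by most transcripts. Deposited values ran from 1.58 to 13.35, with array medians of 4.87 to 5.21.

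After 64 control probe sets were left out, 22746 entered lmFit and eBayes of limma 3.58.1 (R 4.3.3), with 8 group means over 16 arrays, 8 residual and 3.37 prior degrees of freedom. P-values are two-sided, adjusted by Benjamini-Hochberg over all probe sets of a comparison, and called at 0.05. Tests on simulated arrays were run first. The annotation gave a single gene for 13513 probe sets, several for 503 and did not list 8730; 13436 matched RefSeq (TAIR10.1), used for names and gene order only. Promoter motifs were planned and are not analysed here, for want of sequences.

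Named were the 4 members, the 5 most correlated genes of each, the nearest measured neighbours, and list genes called in WT. ZAT10, the other measured gene of its list, did not pass in WT and lies outside this rule. Members and lists were chosen with earlier results of these data known. Alternatives were array scaling, quantile normalization, a filter on dim probe sets, own arrays, the array number as a block (over all arrays and, added later, within WT and QK), trended robust variances and leaving out each array.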

Additional observations from a re-analysis of the deposited data

Results flagged for a closer look

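Genes other than the 4 members whose heat response differed between lines by a limma interaction term were marked for a closer look. Only the gene lists, the chaperone and tolerance genes and the neighbours were looked at. Over all probe sets, 1483 passed 0.05 by limma without adjustment for QK minus WT, and 2894 for A2QK minus QK. The lists were chosen with earlier results of these data known. AT1G66080 and CML37 are also among the probe sets picked above for rising in WT and not in QK. These p-values are therefore a description and no independent support. The response of QK was smaller than that of WT for AT1G71000 (-7.20 ± 0.64, limma adjusted p = 0.000105), AT1G66080 (-5.52 ± 0.39, limma adjusted p = 2.11e-05), HSA32 (-3.89 ± 0.39, limma adjusted p = 0.000284), SK18 (-2.61 ± 0.21, limma adjusted p = 6.53e-05) and AT1G21560 (-1.78 ± 0.28, limma adjusted p = 0.00658). For HSP17.6B, a cytosolic small heat shock protein, it was smaller by -6.17 ± 1.12 (limma adjusted p = 0.0161), with heated QK arrays far apart at 5.19 and 8.79. For CML37 it was smaller by -3.82 ± 0.80 (limma adjusted p = 0.0391). The CML37 level in QK at 22 °C was 3.52 ± 1.64 (SD, n = 2), so those arrays lay apart. The response of A2QK exceeded that of QK for AT1G71000 (5.32 ± 0.64, limma adjusted p = 0.001), AT1G66080 (2.51 ± 0.39, limma adjusted p = 0.00536) and SK18 (2.06 ± 0.21, limma adjusted p = 0.000415). SK18 and AT1G21560 are the neighbours of AT1G10260 and AT1G21550 described above.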

How the results depend on the processing

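The rises of the 4 members in hsfa2 kept their direction and passed under every alternative run. Their adjusted p-values reached at most 0.000391, for AT5G05220 with own arrays only. Leaving out single arrays gave 6.26 to 7.00 for AT1G21550, 3.40 to 3.66 for AT5G05220, 4.91 to 5.30 for AT5G53680 and 6.02 to 6.17 for AT1G10260; a lone array in a group is assumed to vary like the others. The array number as a replicate block left the 4 rises at 6.63, 3.53, 5.10 and 6.10 and gave 1474 raised and 2241 lowered probe sets. Same-numbered deviations correlated at 0.535 to 0.795 in all 6 pairs among the 4 WT and QK groups, and at -0.0221 to 0.152 in the other 22 pairs (0.0158 within hsfa2). Differences of A2QK or hsfa2 from WT or QK cross this divide, and its part in them was not tested. Because of these correlations, a replicate block within WT and QK, chosen after seeing the data, went beside the fit without one. It left the 4 rises and their calls as they were and gave 2143 raised and 3201 lowered probe sets in hsfa2, and 2 and 7 calmodulin-like calls in QK and A2QK. With it the QK responses of HSP17.6C (3.42, limma adjusted p = 0.0496), HSP17.6B (2.32, limma adjusted p = 0.0327) and AT1G66080 (0.70, limma adjusted p = 0.0469) passed. Those of AT1G21560 (-0.66, limma adjusted p = 0.0282) and CML42 (-0.54, limma adjusted p = 0.0379) passed as well. Some differences in heat response between lines passed with this block too. They were QK minus WT for HSP17.6C (-6.57, limma adjusted p = 0.0354) and A2QK minus QK for HSA32 (1.41, limma adjusted p = 0.0293) and CML42 (-0.92, limma adjusted p = 0.0333). Each difference flagged for a closer look, all of genes other than the members, passed with this block as well. With equal array medians the median hsfa2 response of all probe sets was 0.212, against 0.0258, with 5.43 for AT5G05220 in A2QK, 5.68 for AT5G53680 in WT, 2869 raised probe sets in hsfa2 and 6 calmodulin-like calls in A2QK. Own arrays only gave 0, 0 and 8 calmodulin-like calls in WT, QK and A2QK, and 0 and 2 calls of known heat targets in QK and A2QK. Each of these fits had fewer arrays and its own estimate of the spread. Of all probe sets 1.02% were called in WT, 0.185% in QK and 32.5% in A2QK, against 8.64%, 6.86% and 15.8% in the shared fit. The r between the arrays of a group was 0.959 and 0.968 in WT, 0.967 and 0.97 in QK, and 0.993 and 0.995 in A2QK. The part of this unequal spread in the counts was not tested. Without single arrays 602 to 1330 probe sets were raised and 869 to 2053 lowered in hsfa2. Signal near the arrays' floor limits the size of the rises.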
